A study of Homo sapiens with 16 samples.

Results

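Interferon-stimulated genes (ISGs) are the genes that cells switch on after type I, II or III interferons bind their receptors, and 41 of them were followed in HCT116, a human colorectal carcinoma cell line, kept in normoxia (21% oxygen) or in hypoxia (1% oxygen for 24 h). The 41 symbols were taken from a list of classical ISGs and looked up among the 23669 genes of the count table, and all 41 had a row. Poly(A) RNA was sequenced on an Ion Torrent instrument from 4 lines at both oxygen levels, with 2 libraries in each of the 8 groups and 16 libraries in all. The shNT line stably expressed a non-targeting short hairpin RNA and was the control, the shTIP60 and shCDK8 lines stably expressed hairpins against TIP60 (gene KAT5, an acetyltransferase) and CDK8 (a kinase of the Mediator complex), and the HIF1A-/- line was deleted for HIF1A, the oxygen-regulated subunit of the hypoxia-inducible factor HIF-1. The labels mention no added interferon or virus. Each target was altered in 1 line, and the labels name no hairpin for HIF1A-/- cells, so a difference from shNT cannot be told apart from a property of that clone, hairpin or vector. The labels call the 2 samples of a group independent biological replicates, and the p-values measure the spread between those libraries. In bulk RNA, fewer cells carrying a transcript and less of it per cell cannot be told apart.

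In the canonical pathway, type I and III interferons activate the kinases JAK1 and TYK2, which lead to the assembly of ISGF3, a complex that includes STAT2 and IRF9 and binds the interferon-stimulated response element (ISRE) in ISG promoters. Interferon-gamma acts through gamma-activated sites (GAS). The products include RNA sensors (RIG-I, here under its older symbol DDX58, and IFIH1), enzymes that make or act on RNA (the OAS family, ISG20), RNA-binding IFIT proteins, the ubiquitin-like modifier ISG15 with its enzymes, membrane proteins that block viral entry or release (IFITM1 to IFITM3, BST2) and the transcription factors that keep the response going (IRF7, IRF9, STAT2). Many ISGs also have a basal level in cells without added interferon.

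RefSeq promoters were found for 34 of the 41 genes in the table of GRCh38.p14, and 33 of these were placed in GRCh37, the build of the deposited counts, by exact match. The ISRE core GAAA NN GAAA (N, any base), searched on both strands in the 250 bases before the start site and counted also where matches overlap, was present in 19 of the 34 (55.9%) and in 3.02% of all 35116 promoters. The GAS motif TTCNNNGAA was present in 9 (26.5%, against 6.57% of all promoters), and ACGTG, the core of the hypoxia response element bound by HIF-1, was present in 6 (17.6%, against 18.5%). A match describes these letters and not a bound site. The stretches around the matches are shown for the 6 genes with a match and the greatest called fold changes, among genes with a mean of at least 1 CPM in the higher group (CPM, read counts per 1000000 counted reads of the library after scaling), because the results turn on several of them. They are written 5′ to 3′ on the gene's strand, with the ISRE core on either strand in capitals; such choices rest on values seen in these data.
IFI27: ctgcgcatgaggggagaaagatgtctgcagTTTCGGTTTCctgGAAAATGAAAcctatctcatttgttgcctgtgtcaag
ISG15: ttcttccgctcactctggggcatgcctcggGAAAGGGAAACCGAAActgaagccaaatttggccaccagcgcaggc
BST2: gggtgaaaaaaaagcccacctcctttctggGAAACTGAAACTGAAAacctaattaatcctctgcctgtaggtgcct
ISG20: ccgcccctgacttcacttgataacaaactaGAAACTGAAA
IFI6: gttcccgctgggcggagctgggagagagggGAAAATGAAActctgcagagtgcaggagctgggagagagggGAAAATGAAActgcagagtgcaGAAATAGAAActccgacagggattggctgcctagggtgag
EPSTI1: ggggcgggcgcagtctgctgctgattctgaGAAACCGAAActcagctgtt
They lie in GRCh37 at chr14:94576944-94577023 (IFI27, plus strand), chr1:948734-948809 (ISG15, plus), chr19:17516524-17516599 (BST2, minus), chr15:89182148-89182187 (ISG20, plus), chr1:27998757-27998889 (IFI6, minus) and chr13:43566408-43566457 (EPSTI1, minus). IFI6 held 3 matches, IFI27, ISG15 and BST2 held 2 each, and ISG20 and EPSTI1 held 1 each. Genes with large called fold changes did not all hold a match. OAS1, CMPK2, PARP9, DTX3L and MX1, whose values are given below, had no match in the bases searched. In ISG15 and BST2 the 2 matches overlapped and shared a GAAA.

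In the unperturbed state, shNT cells in normoxia, the ISGs spanned a wide range of levels. Per kilobase of the canonical transcript, the mean CPM (CPM per kb) was 361 for IFITM3, 261 for LGALS3BP (a secreted glycoprotein), 148 for ISG15 and 58.3 for IFITM2. Among the genes that reached 1 CPM in some group, the lowest were MX1 (a dynamin-like GTPase) at 0.528, OAS1 at 0.404, IFI44 at 0.293 and EPSTI1 at 0.140 CPM per kb. LGALS3BP, IFITM3 and ISG15 together made up 56.4% to 65.9% of the summed CPM of the 41 genes in each library. In 6 genes (OAS2, MX2, IFI44L, RSAD2, SAMD9L and XAF1) the mean stayed under 1 CPM in every group, and they are described by their counts. The filter on low counts passed 38 of the 41 and left out IFI44L, RSAD2 and XAF1, which had at most 7, 19 and 6 counts in any group (both libraries summed).

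Total counts per library ran from 26620086 to 39401494, so that 3 counts corresponded to 0.0716 to 0.112 CPM. Between 36 and 41 of the ISGs had at least 1 count in a library. KAT5 was at 85.8 ± 1.34 CPM (SD, n = 2) in shNT and 19.7 ± 0.763 in shTIP60 cells in normoxia, and CDK8 was at 26.02 ± 1.78 in shNT and 6.29 ± 0.729 in shCDK8 cells. HIF1A was at 107 ± 0.804 CPM in shNT and 13.6 ± 0.763 in HIF1A-/- cells in normoxia, but at 65.9 ± 6.55 and 48.9 ± 12.4 in hypoxia; a gene-level count does not show which exons the reads came from. Epithelial markers (EPCAM, keratins, CDH1 and others, 10 genes) summed to 4090 to 11023 CPM, with 7 or 8 of them above 1 CPM in each library. KRT8, KRT18 and KRT19 made up most of this sum, so it does not show how each marker moved. The leukocyte list (10 genes) summed to 9.08 to 119.7 CPM, most of it CD68, a lysosomal protein also made outside leukocytes, while PTPRC, CD3E and NKG7 had at most 2 counts in any library and MS4A1 had 0. Counts per library were 7 to 69 for CD8A, 8 to 57 for ITGAM, 0 to 36 for LYZ, 2 to 18 for CD14 and 0 to 8 for CD4, and 1 to 4 of the 10 genes were above 1 CPM. The list for fibroblasts and endothelium (8 genes) summed to 22.1 to 85.6 CPM, with 1 to 3 of them above 1 CPM. The list for plasmacytoid dendritic cells, a main producer of type I interferon (4 genes), summed to at most 0.149 CPM.

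**Figure D1:**
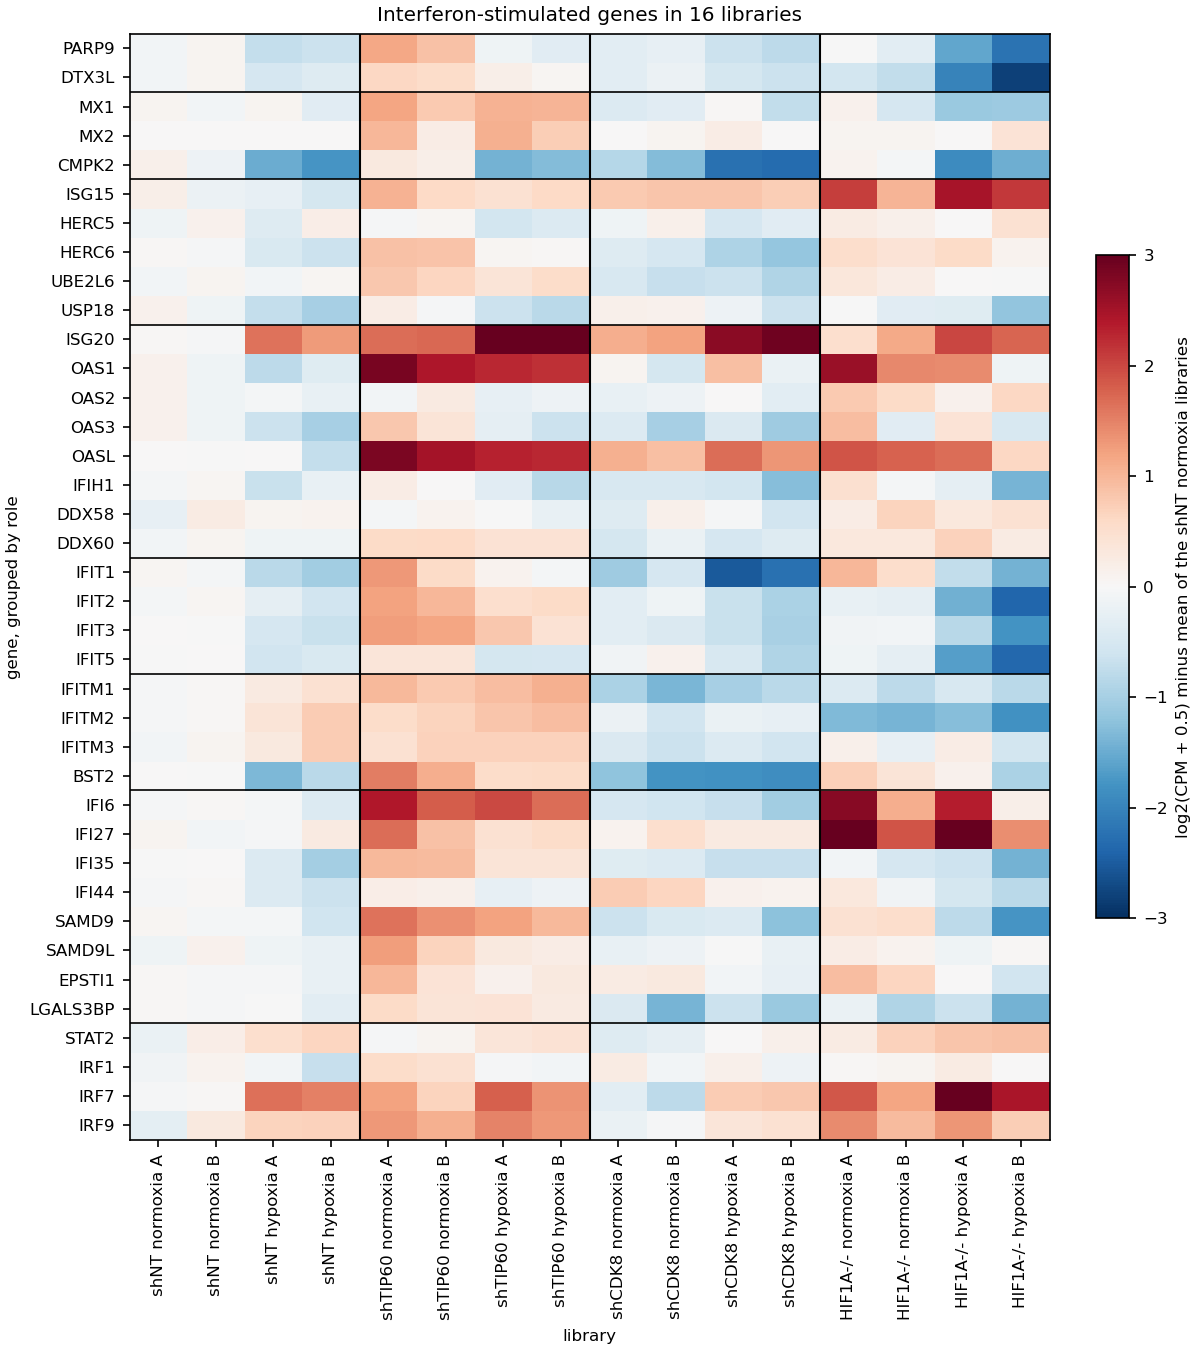
Level of each of the 38 tested ISGs (rows, grouped by role) in each of the 16 libraries (columns), as log2(CPM + 0.5) minus the mean of both shNT normoxia libraries; colours are capped at 3 in either direction. Most rows are red in the shTIP60 columns, ISG20 and IRF7 are redder in hypoxia than in normoxia in every line, and CMPK2 is blue in every hypoxia column.

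The 2 libraries of HIF1A-/- cells differed from each other in these genes. A library from the lower of the deposited series of library numbers is called A here, and one from the higher series B. In normoxia 31 and in hypoxia 30 of the 38 tested ISGs were higher in library A, with a median difference of 0.26 and 0.59 in log2(CPM + 0.5). IFI27 was at 26.7 and 6.34 CPM in A and B in normoxia and 25.1 and 4.35 in hypoxia. IFI6 was at 117 and 37.4 (normoxia) and 90.98 and 19.7 (hypoxia) CPM. In hypoxia 11 of the 38 were at least 2 times higher in A than in B (IFIT2, IFIT3, OAS1, OASL, IFI6, IFI27, IFI44, IFIH1, BST2, SAMD9 and EPSTI1). The corresponding medians in the other 6 groups lay between -0.04 and 0.19, so results for HIF1A-/- cells are given also without 1 library. An excess in library A was not limited to HIF1A-/- cells. Of the 38, 29 were higher in A in shTIP60 cells in normoxia and 28 in shCDK8 cells in hypoxia, against 17 in shNT cells in normoxia. The shares of all tested genes higher in A, or at least 2 times higher, were not computed.

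Hypoxia against normoxia asked how low oxygen moved these genes without added interferon. In shNT cells a fall in part of the effectors stood beside a rise in 3 of the 4 transcription factors (IRF7, STAT2 and IRF9) and in ISG20. The calls of STAT2 and IRF9 depended on single libraries. Of the 38 tested ISGs, 5 rose and 9 fell at an adjusted p under 0.05 (edgeR's quasi-likelihood test with Benjamini-Hochberg adjustment over 15520 genes); 40.7% of all tested genes passed, 20.7% higher and 20.0% lower, a share close to that of the 14 of 38 ISGs. The median log2 fold change was -0.36 for the 38 and 0.00 for all tested genes. The count was 4 without normoxia library A (2 rises and 2 falls), 5 without hypoxia library B (2 and 3), 10 without normoxia library B (5 and 5) and 11 without hypoxia library A (5 and 6). Epithelial markers summed to 4130 and 4090 CPM in normoxia and 10041 and 7615 in hypoxia in these cells, and the leukocyte list to 9.08 and 9.89 and then 41.4 and 41.6, most of it CD68. The epithelial markers did not all move together. CDH1 and ELF3 were higher in hypoxia, while EPCAM went from 6983 and 8877 counts to 5097 and 5847, and KRT20 from 133 and 245 to 27 and 13. The fibroblast and endothelial list summed to 32.5 and 35.3 and then 82.8 and 70.3. Their part in the result was not tested.

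ISG20, an exonuclease that degrades single-stranded RNA, was at 2.89 and 2.70 CPM in the shNT normoxia libraries and 9.62 and 7.44 in the hypoxia libraries. It stood at 9.99 and 10.5 in normoxia and 40.3 and 37.2 in hypoxia in shTIP60 cells, 6.49 and 7.13 (normoxia) and 20.96 and 24.5 (hypoxia) in shCDK8 cells, and 4.14 and 6.79 (normoxia) and 12.7 and 10.6 (hypoxia) in HIF1A-/- cells. In each line both hypoxia libraries lay above both normoxia libraries. The log2 fold change was 1.61 ± 0.22 (SE, adjusted p = 3.59e-05) in shNT, 1.92 ± 0.20 (SE, adjusted p = 3.18e-06) in shTIP60, 1.74 ± 0.21 (SE, adjusted p = 2.34e-05) in shCDK8 and 1.09 ± 0.21 (SE, adjusted p = 7.48e-04) in HIF1A-/- cells, and ISG20 was the only ISG of the 38 that rose in all 4 lines, as 6.64% of all tested genes did.

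CMPK2, a nucleotide kinase of mitochondria, moved the other way. It was at 3.51 and 2.77 CPM in normoxia and 0.793 and 0.562 in hypoxia in shNT cells and at 3.41 and 3.01 (normoxia) and 0.483 and 0.812 (hypoxia) in HIF1A-/- cells. In shTIP60 cells the values were 3.95 and 3.57 (normoxia) and 0.860 and 0.974 (hypoxia), and in shCDK8 cells 1.51 and 0.972 (normoxia) and 0.270 and 0.226 (hypoxia). Within each line both hypoxia libraries lay below both normoxia libraries, and shCDK8 cells had the lowest values at each oxygen level. The log2 fold changes of -2.20, -2.03, -2.29 and -2.29 (shNT, shTIP60, shCDK8, HIF1A-/-; SE 0.31 to 0.39) were within 1 SE of each other, with adjusted p of 6.35e-05, 9.55e-05, 5.81e-04 and 6.24e-05. CMPK2 (chr2:6980701-7006766, minus strand) overlaps RSAD2 (chr2:7005688-7038370, plus strand), another antiviral ISG; whether reads were counted by strand is not given, and RSAD2 itself had 0 to 19 counts per group.

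IFIT1 and IFIT5, which bind viral RNA by its 5′ end, also fell in all 4 lines. IFIT1 was at 12.8 and 11.8 CPM in normoxia and 6.83 and 5.75 in hypoxia in shNT cells, 31.03 and 18.6 (normoxia) and 13.3 and 11.8 (hypoxia) in shTIP60 cells, 5.56 and 8.45 (normoxia) and 1.73 and 2.23 (hypoxia) in shCDK8 cells, and 25.1 and 17.96 (normoxia) and 7.14 and 4.29 (hypoxia) in HIF1A-/- cells. The groups did not overlap within any line, and the lowest values were those of shCDK8 cells in hypoxia. Its log2 fold change was -0.97 ± 0.28 (SE, adjusted p = 0.0119), -0.99 ± 0.27 (SE, adjusted p = 0.00861), -1.83 ± 0.31 (SE, adjusted p = 5.95e-04) and -1.92 ± 0.28 (SE, adjusted p = 9.17e-05) in that order. Of the 38 ISGs, 3 fell in all 4 lines (CMPK2, IFIT1 and IFIT5), 2 fell in 3 of them (HERC6 and PARP9) and 4 in 2 of them (IFI35, IFI44, USP18 and BST2). Of all 15520 tested genes, 5.05% fell in all 4 lines, 6.91% in 3 and 7.56% in 2. The 4 responses share no libraries. The fall held without each library in turn in all 4 lines for CMPK2, but in 2 lines each for IFIT1, IFIT5 and PARP9, in 1 for HERC6 and in 0 for IFI35, IFI44, USP18 and BST2. IFIT1 missed the threshold in shNT cells when normoxia library A (adjusted p = 0.0644) or hypoxia library B (0.0871) was left out and in shTIP60 cells without normoxia library A, at -0.57, or hypoxia library B (0.177 and 0.0732). IFIT5 missed it in shNT cells without each of the 4 libraries (0.0945 to 0.170) and in shCDK8 cells without library B of either oxygen level (0.118 and 0.179).

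IRF7, the factor that amplifies type I interferon production, was at 10.9 and 11.4 CPM in normoxia and 36.2 and 32.5 in hypoxia in shNT cells and at 41.9 and 25.7 (normoxia) and 92.9 and 62.7 (hypoxia) in HIF1A-/- cells. In shCDK8 cells it was at 8.89 and 6.24 (normoxia) and 19.4 and 19.9 (hypoxia), and in shTIP60 cells at 26.2 and 17.9 (normoxia) and 39.98 and 29.02 (hypoxia). Both hypoxia libraries were above both normoxia libraries in each line, and the highest values of all were those of HIF1A-/- cells in hypoxia. The rise passed the test in shNT, 1.62 ± 0.26 (SE, adjusted p = 1.42e-04), shCDK8, 1.38 ± 0.27 (SE, adjusted p = 0.00153), and HIF1A-/- cells, 1.20 ± 0.25 (SE, adjusted p = 0.00143). In shTIP60 cells the value was 0.65 ± 0.25 (SE, adjusted p = 0.0515). STAT2 and IRF9, the DNA-binding partners in ISGF3, rose in shNT cells by 0.56 ± 0.16 (SE, adjusted p = 0.00983) and 0.66 ± 0.22 (SE, adjusted p = 0.0253) on the log2 scale, while IRF1 was at -0.37 ± 0.19 (SE, adjusted p = 0.136) and was not called. STAT2 and IRF9 were called higher in hypoxia in 1 of the 4 lines only. In shNT cells both missed the threshold without normoxia library A and without hypoxia library B.

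Among the other ISGs of shNT cells, BST2 (tetherin, which holds budding virions at the cell surface) fell from 1.85 and 1.81 CPM to 0.414 and 0.827, a log2 fold change of -1.55 ± 0.47 (SE, adjusted p = 0.0143). USP18, the protease that removes ISG15 and restrains the type I receptor, fell by 0.96 on the log2 scale and IFI35 by 0.71. PARP9, an ADP-ribosyltransferase that works as a pair with the ubiquitin ligase DTX3L, fell by 0.70. IFITM2 rose by 0.59 ± 0.17 (SE, adjusted p = 0.0125); the values for IFITM1 and IFITM3 were 0.38 ± 0.19 (SE, adjusted p = 0.114) and 0.55 ± 0.22 (SE, adjusted p = 0.0537). IFITM1 to IFITM3 are close copies in 1 cluster on chromosome 11, so the split of reads between them is uncertain.

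**Figure D2:**
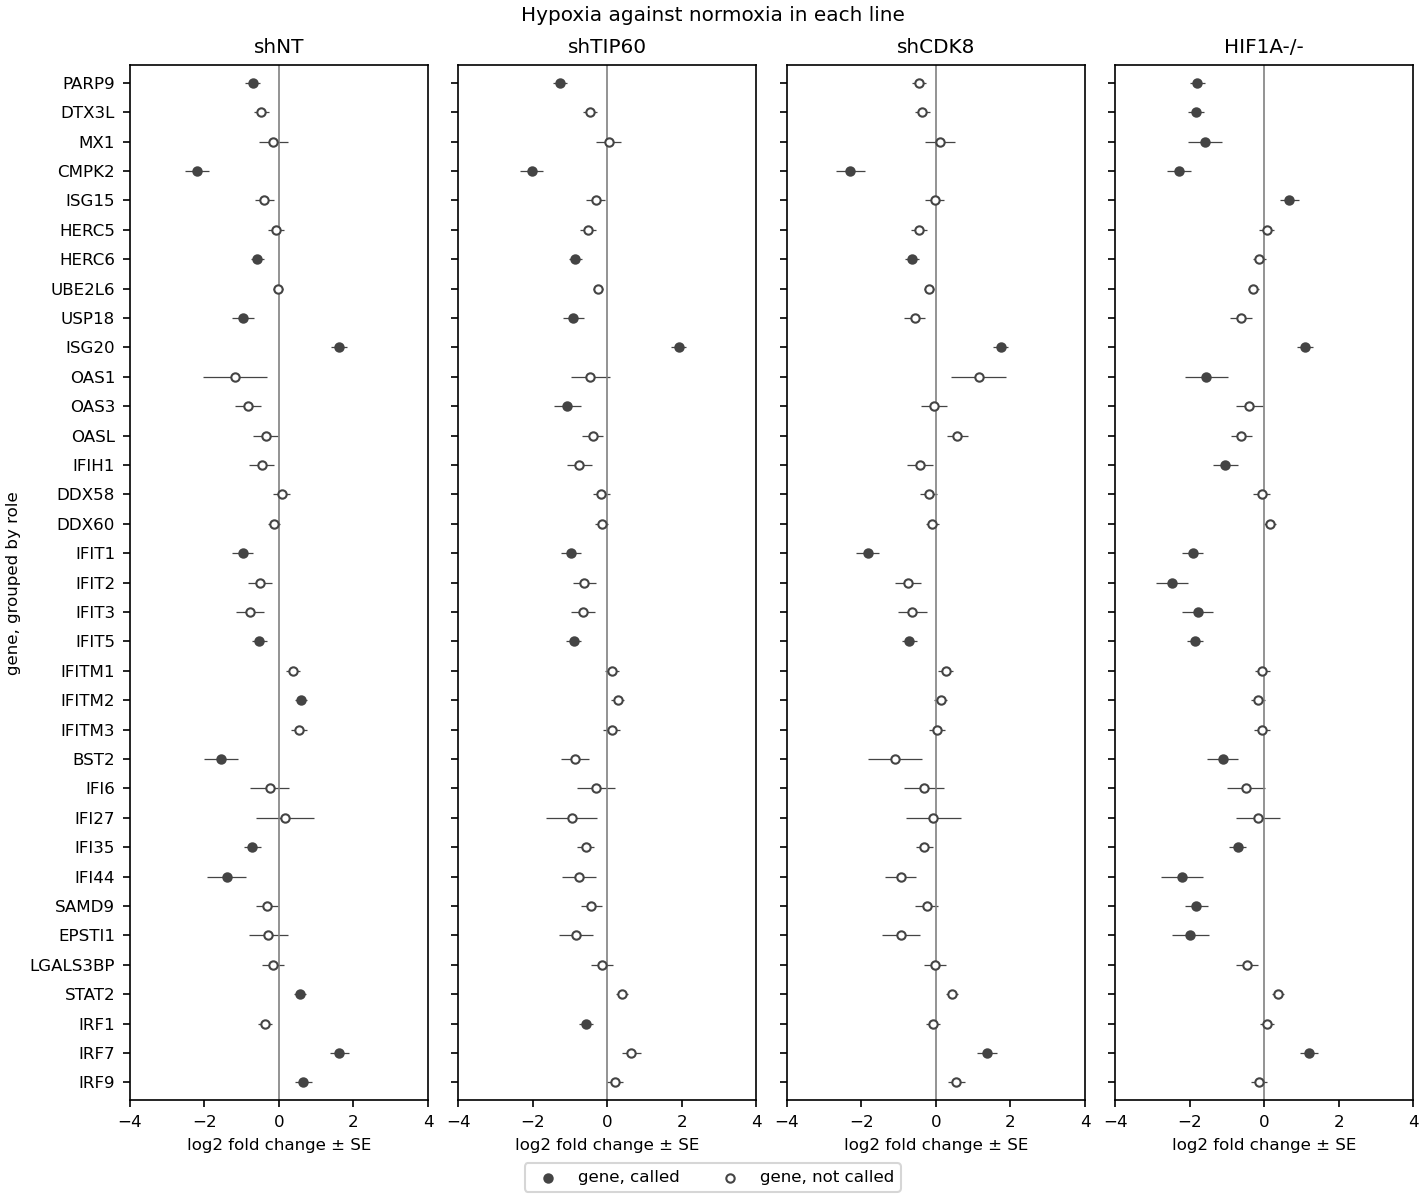
log2 fold change of hypoxia against normoxia (x axis, bars are ± 1 SE) of the 35 ISGs that reached 1 CPM in some group, in each of the 4 lines; filled points passed an adjusted p of 0.05. CMPK2 lies near -2 and ISG20 between 1 and 2 in every panel, and the panel for HIF1A-/- cells has the most filled points left of 0.

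In HIF1A-/- cells 3 ISGs rose and 15 fell in hypoxia (38.0% of all tested genes passed, 18.9% higher and 19.1% lower), with a median log2 fold change of -0.55. All 4 IFIT genes fell, by 2.47 (IFIT2), 1.92 (IFIT1), 1.86 (IFIT5) and 1.79 (IFIT3) on the log2 scale, as did both partners PARP9 (1.80) and DTX3L (1.84). SAMD9, an antiviral restriction factor, fell by 1.83, EPSTI1 by 1.98, IFI44 by 2.21 and MX1 by 1.59. OAS1 fell by 1.56, BST2 by 1.11, IFIH1 by 1.04 and IFI35 by 0.72. ISG15, ISG20 and IRF7 were the 3 that rose. The number of calls fell most without hypoxia library B. Among the falls that then missed the threshold were EPSTI1 at -1.32, IFI44 at -1.62, BST2 at -0.52 and IFI35 at -0.35. Without normoxia library A, IFI44 (-1.80), BST2 (-0.93) and IFI35 (-0.51) missed it too. IFI44 had 5 and 2 counts in the hypoxia libraries, near the detection limit.

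In shTIP60 cells 1 ISG rose (ISG20) and 8 fell (39.2% of all tested genes passed, 19.4% higher and 19.8% lower; median of the 38, -0.50). Besides CMPK2, IFIT1 and IFIT5, the calls were PARP9 at -1.28 ± 0.19 (SE, adjusted p = 8.74e-05), OAS3 at -1.07 ± 0.36 (SE, adjusted p = 0.0260), USP18 at -0.92 ± 0.28 (SE, adjusted p = 0.0172), HERC6 at -0.86 ± 0.17 (SE, adjusted p = 0.00103) and IRF1 at -0.56 ± 0.19 (SE, adjusted p = 0.0261). OAS3 makes the 2-5A messenger that activates RNase L, and HERC6 is a ligase related to the main ISG15 ligase, HERC5. The 9 calls became 18 with library totals in place of TMM factors, 16 without a filter, 26 when only these 4 libraries were fitted, 17 with library series as a block and 6 without normoxia library A or either hypoxia library. The block, a term for the series of library numbers, was chosen after seeing the data. OAS3 missed the threshold with DESeq2 (adjusted p = 0.0537).

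In shCDK8 cells 2 ISGs rose (ISG20 and IRF7) and 4 fell (24.8% of all tested genes passed, 13.8% higher and 11.0% lower; median of the 38, -0.14). The falls were CMPK2, IFIT1, IFIT5 at -0.71 ± 0.20 (SE, adjusted p = 0.0148) and HERC6 at -0.64 ± 0.18 (SE, adjusted p = 0.0172). The 6 calls became 10 without a filter, 12 with library series as a block and 4 without library B of either oxygen level.

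With library totals alone as the scale, the median of all tested genes in the 4 hypoxia comparisons shifted to between -0.28 and -0.16 on the log2 scale. The same scale moved the median of all genes in HIF1A-/- against shNT cells in hypoxia to -0.12. The split of rises and falls became 2 and 13 in shNT, 2 and 19 in HIF1A-/-, 2 and 6 in shCDK8 and 1 and 17 in shTIP60 cells.

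The difference of responses asked whether a line answered hypoxia differently from shNT. For HIF1A-/- cells 6 of the 38 ISGs passed, all with a lower response than in shNT (16.4% of all tested genes passed, 7.53% higher and 8.92% lower). DTX3L was at 21.3 and 24.2 CPM in normoxia and 15.8 and 17.2 in hypoxia in shNT cells, and at 15.4 and 13.5 (normoxia) and 5.32 and 2.82 (hypoxia) in HIF1A-/- cells. Its response differed by -1.38 ± 0.29 (SE, adjusted p = 0.00465) on the log2 scale, and that of its partner PARP9 by -1.10 ± 0.28 (SE, adjusted p = 0.0148). The 2 genes lie head to head on chromosome 3 (chr3:122246771-122283424, minus strand; chr3:122283185-122294050, plus strand) with overlapping ends, so some of their reads may not be separable. IFIT2, which promotes cell death and restricts viral RNA, was at 2.65 and 2.91 CPM in normoxia and 2.21 and 1.72 in hypoxia in shNT cells and at 2.32 and 2.20 (normoxia) and 0.706 and 0.130 (hypoxia) in HIF1A-/- cells, a difference of responses of -1.97 ± 0.54 (SE, adjusted p = 0.0221).

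IFIT5 was at 19.8 and 20.4 CPM in normoxia and 13.4 and 14.6 in hypoxia in shNT cells and at 18.2 and 16.6 (normoxia) and 6.10 and 3.54 (hypoxia) in HIF1A-/- cells. HIF1A-/- cells were slightly lower in normoxia, and their hypoxia libraries were the lowest of all 16. The response differed by -1.34 ± 0.29 (SE, adjusted p = 0.00568), that of SAMD9 by -1.50 ± 0.43 (SE, adjusted p = 0.0261) and that of IFITM2 by -0.76 ± 0.25 (SE, adjusted p = 0.0480). The count was 2 without shNT normoxia library A or HIF1A-/- hypoxia library B, 4 without shNT hypoxia library A, 11 without HIF1A-/- hypoxia library A and 5 to 7 without each of the others. With only these 8 libraries fitted it was 2, and IFIT2, SAMD9, PARP9 and IFITM2 missed the threshold (adjusted p of 0.107, 0.0690, 0.0712 and 0.124).

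The responses of shCDK8 and shTIP60 cells gave 0 calls among the 38 ISGs against that of shNT in edgeR's test (in shCDK8 cells 0.0387% of all tested genes passed, 0.00644% higher and 0.0322% lower; in shTIP60 cells 0.0322% of all tested genes passed, 0.00644% higher and 0.0258% lower). At an unadjusted p under 0.05 there were 1 and 2, and DESeq2 called 0 in each. The fitted differences ran from -0.86 for IFIT1 to 3.41 for SAMD9L, a gene near the detection limit, in shCDK8 cells, and from -1.13 (IFI27) to 0.72 (OAS1) in shTIP60 cells. For IFIT1 the SE was 0.42 in shCDK8 and 0.39 in shTIP60 cells; missing the threshold does not show that the responses were alike.

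Each altered line was then set against shNT at the same oxygen level; the 3 lines share the shNT libraries. In shTIP60 cells many ISGs were higher than in shNT, and none was called lower. In normoxia all 38 tested members had a log2 fold change above 0, 23 rose and 0 fell (18.4% of all tested genes passed, 10.3% higher and 8.13% lower), and the median was 0.91 against 0.00 for all tested genes. In hypoxia, with separate libraries of both lines, 19 rose and 0 fell, with a median of 0.61 (21.8% of all tested genes passed, 11.3% higher and 10.5% lower). The 19 were all among the 23, but how often calls repeated in this way over all tested genes was not computed. MX2 and SAMD9L passed the filter on low counts only with the shTIP60 libraries in the table; of the other 36, all were above 0 in normoxia, with 21 called and a median of 0.87, and 30 were above 0 in hypoxia, with 18 called and a median of 0.59. The summed CPM of the 41 genes was 1388 ± 4.41 (SD, n = 2) in shNT and 2179 ± 157 in shTIP60 cells in normoxia, and 1390 ± 22.0 and 1933 ± 76.2 in hypoxia.

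OAS1, which synthesises the 2-5A messenger on binding double-stranded RNA, was at 0.770 and 0.549 CPM in the shNT normoxia libraries and 7.81 and 5.70 in those of shTIP60 cells. In hypoxia it was at 0.172 and 0.397 in shNT and 5.07 and 4.75 in shTIP60 cells. All 4 shTIP60 libraries lay above all 4 of shNT. The log2 fold change was 3.37 ± 0.63 (SE, adjusted p = 0.00128) in normoxia and 4.08 ± 0.73 (SE, adjusted p = 8.68e-04) in hypoxia. OASL, a related protein without synthetase activity that assists RIG-I, was at 3.48 and 3.41 CPM in shNT and 27.4 and 21.7 in shTIP60 cells in normoxia and at 3.48 and 1.92 (shNT) and 19.01 and 18.3 (shTIP60) in hypoxia. It rose by 2.83 ± 0.30 (SE, adjusted p = 6.57e-06) and 2.79 ± 0.31 (SE, adjusted p = 1.08e-05).

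IFI6, a small membrane protein of the endoplasmic reticulum and mitochondria, was at 16.8 and 17.8 CPM in shNT and 92.8 and 62.1 in shTIP60 cells in normoxia and at 16.5 and 12.8 (shNT) and 69.4 and 56.6 (shTIP60) in hypoxia, without overlap. The log2 fold changes were 2.16 ± 0.53 (SE, adjusted p = 0.00933) and 2.11 ± 0.53 (SE, adjusted p = 0.0100). ISG20 was higher in shTIP60 cells by 1.87 ± 0.22 (SE, adjusted p = 1.72e-05) in normoxia and 2.18 ± 0.20 (SE, adjusted p = 1.75e-06) in hypoxia. BST2 was at 6.28 and 4.48 CPM in shTIP60 cells in normoxia and 2.92 and 2.95 in hypoxia, above the shNT values given before, with log2 fold changes of 1.55 ± 0.39 (SE, adjusted p = 0.0107) and 2.23 ± 0.46 (SE, adjusted p = 0.00239).

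By role, 3 of the 4 IFIT genes rose at both oxygen levels: IFIT3 by 1.41 in normoxia and 1.54 in hypoxia, IFIT2 by 1.23 and 1.12, and IFIT1 by 1.01 and 0.99. IFIT5 was at 0.37 ± 0.19 (SE, adjusted p = 0.213) and -0.01 ± 0.20 (SE, adjusted p = 0.972). Of the ISG15 system, ISG15 rose by 0.84 and 0.91, its conjugating enzyme UBE2L6 by 0.73 and 0.49 and HERC6 by 0.91 and 0.63, while HERC5 and USP18 were not called. Neither RNA sensor was called, with DDX58 at 0.01 ± 0.23 (SE, adjusted p = 0.982) and IFIH1 at 0.13 ± 0.33 (SE, adjusted p = 0.834) in normoxia; the helicase DDX60 rose by 0.61 and 0.59. Of the transcription factors, IRF9 rose at both oxygen levels, by 1.19 and 0.74. IRF7 passed the test in normoxia and not in hypoxia, 0.98 ± 0.26 (SE, adjusted p = 0.0139) against 0.01 ± 0.25 (SE, adjusted p = 0.991) in hypoxia, and the difference between the 2 was not called (-0.98 ± 0.36, adjusted p = 0.658). STAT2 was at 0.00 ± 0.16 (SE, adjusted p = 0.994) in normoxia.

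MX2, a nuclear-pore GTPase that restricts retroviruses, had 0 counts in all 4 shNT libraries and 19 counts in shTIP60 cells in normoxia and 29 in hypoxia (both libraries summed). Against a floor of 3 counts over the shNT group, the summed counts were at least 6.93-fold higher in normoxia and at least 8.75-fold higher in hypoxia. By library, A and B had 16 and 3 counts in normoxia and 18 and 11 in hypoxia. Library B in normoxia was thus itself at 3 counts, and the bound in normoxia rests mainly on library A. Its paralog MX1 rose by 1.22 ± 0.36 (SE, adjusted p = 0.0242) and 1.41 ± 0.37 (SE, adjusted p = 0.0114). SAMD9 rose by 1.56 and 1.45, and IFI35 by 0.98 and 1.11. SAMD9L had 7 counts in shNT and 44 in shTIP60 cells in normoxia.

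These counts depended on single libraries. In normoxia the count was 9 without shNT library A, 11 without shNT library B, 10 without shTIP60 library A and 20 without shTIP60 library B. In hypoxia the counts were 15, 5, 7 and 9 in the same order; all were rises except 1 of the 15. IFI6, BST2, IFIT2 and IFIT3 in normoxia missed the threshold without shNT library A (adjusted p of 0.0786, 0.0704, 0.0896 and 0.0580), without shNT library B and without shTIP60 library A. IFI6, IFIT3 and MX1 in hypoxia did so without shNT library B or shTIP60 library A, and MX1 also without shTIP60 library B. The log2 fold changes of the 4 in normoxia lay between 1.12 and 2.20 where the threshold was missed. Within library series, the median difference of the 38 was 0.91 in A and 0.62 in B in normoxia and 0.50 and 0.54 in hypoxia. Epithelial markers summed to 4130 and 4090 CPM in shNT and 7310 and 7233 in shTIP60 cells in normoxia, and the leukocyte list to 9.08 and 9.89 against 25.3 and 27.3; in hypoxia the sums were 10041 and 7615 against 10680 and 10461, and 41.4 and 41.6 against 103 and 119.7. The fibroblast and endothelial list summed to 32.5 and 35.3 against 37.4 and 43.4 in normoxia and 82.8 and 70.3 against 85.6 and 81.1 in hypoxia. Their part in the result was not tested.

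**Figure D3:**
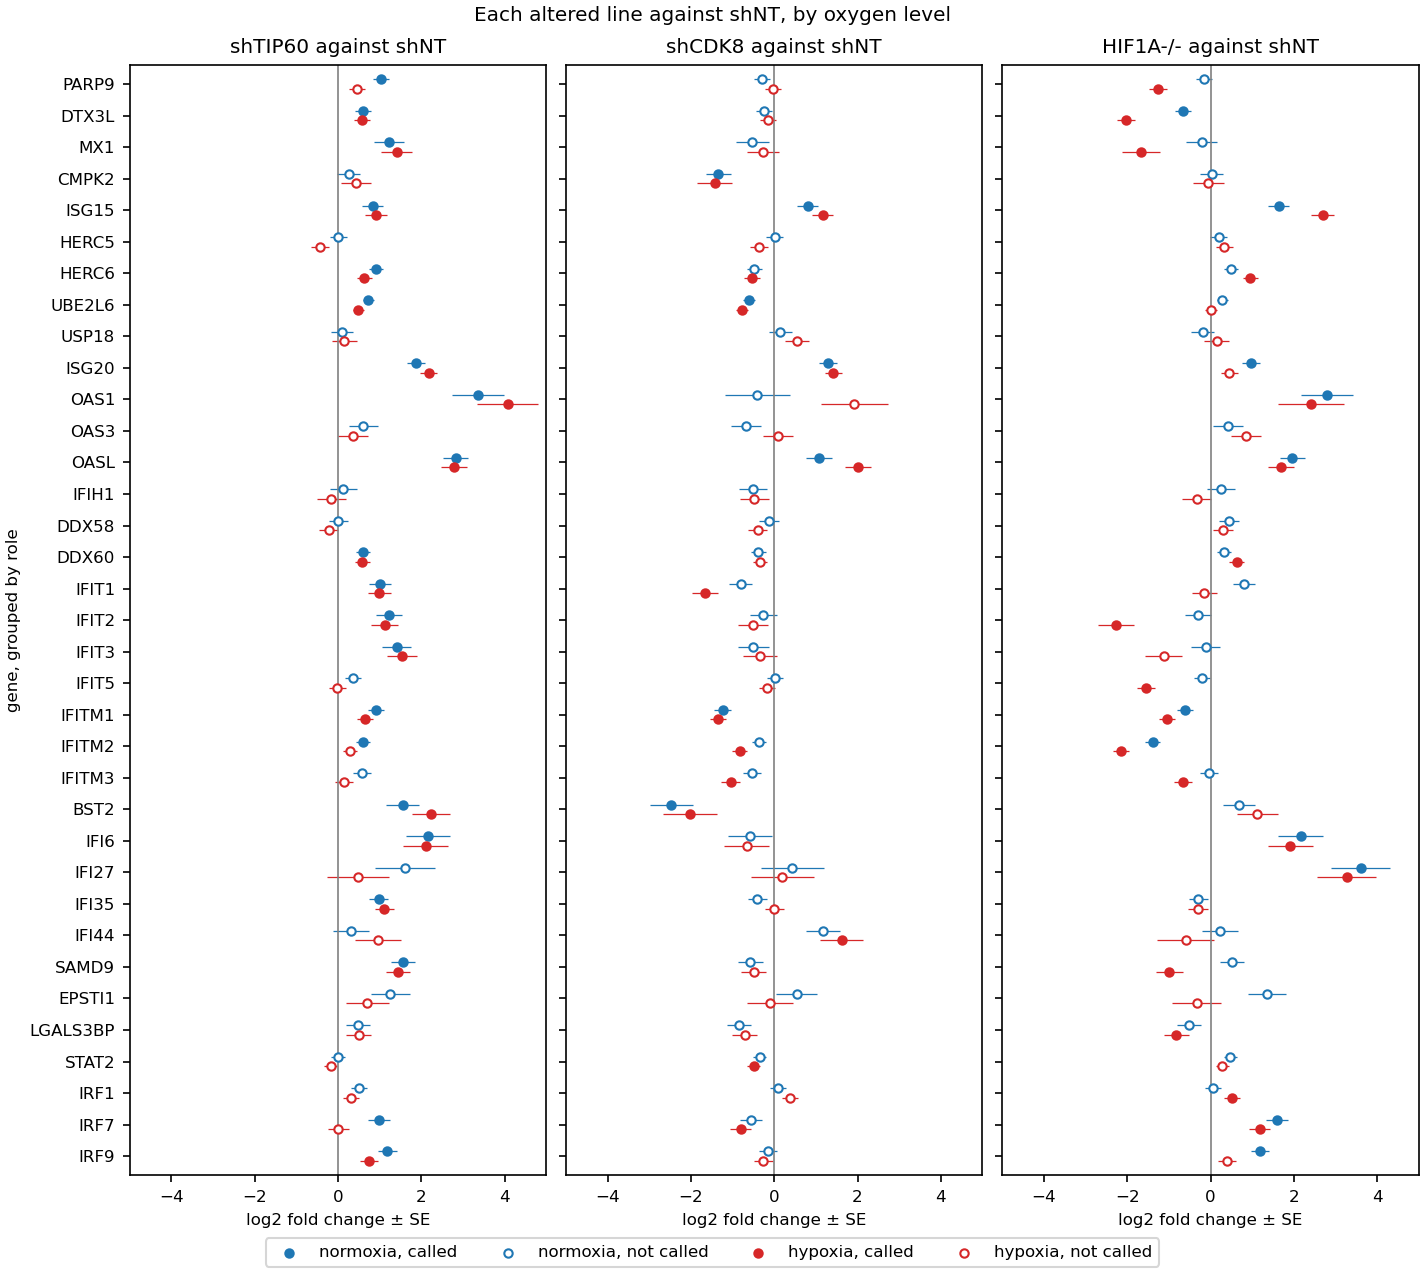
log2 fold change against shNT (x axis, bars are ± 1 SE) of the same 35 ISGs in each altered line, in normoxia (blue) and hypoxia (red); filled points passed an adjusted p of 0.05. In the shTIP60 panel every filled point lies right of 0, while the other 2 panels have filled points on both sides.

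In shCDK8 cells the ISGs split. In normoxia 3 were higher and 4 lower than in shNT (13.1% of all tested genes passed, 5.80% higher and 7.27% lower; median of the 38, -0.39), and in hypoxia 4 were higher and 10 lower (27.9% of all tested genes passed, 14.4% higher and 13.4% lower; median -0.30). The 7 called in normoxia were all called in the same direction in hypoxia. How often this held over all tested genes was not computed, so whether the repeat is particular to the ISGs is not known. ISG20, OASL and ISG15 were the 3 higher ones, and BST2, CMPK2, IFITM1 and UBE2L6 the 4 lower ones.

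BST2 was at 0.502 and 0.177 CPM in shCDK8 cells in normoxia and 0.162 and 0.141 in hypoxia, below both shNT libraries at the same oxygen level, with log2 fold changes of -2.47 ± 0.51 (SE, adjusted p = 0.00370) and -2.01 ± 0.65 (SE, adjusted p = 0.0304). IFITM1 was at 10.8 and 11.5 CPM in shNT and 5.52 and 4.01 in shCDK8 cells in normoxia and at 13.6 and 15.6 (shNT) and 5.32 and 6.12 (shCDK8) in hypoxia. It was lower, with log2 fold changes of -1.24 ± 0.20 (SE, adjusted p = 4.57e-04) and -1.35 ± 0.19 (SE, adjusted p = 1.22e-04). IFITM3 and IFITM2 were called lower in hypoxia, -1.05 ± 0.22 (SE, adjusted p = 0.00228) and -0.83 ± 0.17 (SE, adjusted p = 0.00253), and had the same sign in normoxia without passing, -0.54 ± 0.22 (SE, adjusted p = 0.126) and -0.37 ± 0.17 (SE, adjusted p = 0.197). All 4 membrane restriction genes were thus lower in hypoxia, while none of the 4 was called higher in either condition. BST2 had 6 and 5 counts in the shCDK8 hypoxia libraries, near the detection limit, against 12 and 25 in shNT. The IFITM genes are close copies that may share reads, so the 4 are not independent.

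CMPK2 was lower in shCDK8 cells, with log2 fold changes of -1.35 ± 0.30 (SE, adjusted p = 0.00601) in normoxia and -1.43 ± 0.42 (SE, adjusted p = 0.0189) in hypoxia. IFIT1 was called lower in hypoxia, at -1.67 ± 0.31 (SE, adjusted p = 0.00109). In the same libraries OASL was at 7.71 and 6.86 CPM in normoxia and 12.2 and 9.45 in hypoxia, above all shNT libraries, with log2 fold changes of 1.08 ± 0.30 (SE, adjusted p = 0.0257) and 2.01 ± 0.31 (SE, adjusted p = 2.32e-04). ISG20 was higher by 1.29 ± 0.22 (SE, adjusted p = 8.82e-04) and 1.41 ± 0.20 (SE, adjusted p = 1.17e-04), and ISG15 by 0.80 ± 0.26 (SE, adjusted p = 0.0496) and 1.16 ± 0.26 (SE, adjusted p = 0.00352). IRF7 was called lower in hypoxia, -0.81 ± 0.25 (SE, adjusted p = 0.0261), and missed the threshold without each of the 4 libraries in turn (adjusted p of 0.0651 to 0.130). In normoxia the calls of ISG15 (adjusted p of 0.0795 to 0.328) and OASL (0.0738 to 0.150) were likewise lost without each of the 4 libraries. CMPK2 missed the threshold without shNT library A or shCDK8 library B (0.0578 and 0.0962), BST2 without shCDK8 library B (0.0748) and UBE2L6 without library B of either line (0.0976 and 0.0910), while ISG20 and IFITM1 were called without each library in turn. In normoxia the count was 2 without shCDK8 library B and 4 without either shNT library; in hypoxia it was 8 without shCDK8 library A, 9 without its library B and 9 without shNT library B. Without a filter the normoxia count was 14 (3 higher and 11 lower), it was 12 with only these 4 libraries fitted and 13 with library series as a block. In normoxia the epithelial list summed to 5510 and 4777 CPM in shCDK8 cells, the leukocyte list to 23.4 and 21.8 and the fibroblast and endothelial list to 25.1 and 22.1. In hypoxia the sums were 8779 and 8958, 66.4 and 83.5, and 50.5 and 43.9. Against shNT the leukocyte sum was thus higher and the fibroblast and endothelial sum lower at both oxygen levels; their part in the result was not tested.

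In HIF1A-/- cells some ISGs, among them IFI27, OAS1 and ISG15, were higher than in shNT, and others, among them IFITM2, were lower. In normoxia 8 were higher and 3 lower than in shNT (11.7% of all tested genes passed, 5.86% higher and 5.86% lower; median of the 38, 0.38), and in hypoxia 9 were higher and 10 lower (41.1% of all tested genes passed, 20.3% higher and 20.8% lower; median 0.22). Higher at both oxygen levels were ISG15, OAS1, OASL, IFI6, IFI27 and IRF7, and lower at both were IFITM1, IFITM2 and DTX3L. OAS2 passed the filter on low counts only with the HIF1A-/- libraries in the table, and the medians of the other 37 were 0.33 and 0.15. In normoxia the epithelial list summed to 6579 and 5944 CPM in HIF1A-/- cells, the leukocyte list to 13.95 and 15.95 and the fibroblast and endothelial list to 34.6 and 41.4. In hypoxia the sums were 11023 and 8146, 50.4 and 31.8, and 51.0 and 56.9. The part of these lists, whose shNT sums are given before, in the result was not tested.

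ISG15 was at 106 and 82.4 CPM in shNT and 395 and 189.7 in HIF1A-/- cells in normoxia and at 79.2 and 64.5 (shNT) and 521 and 406 (HIF1A-/-) in hypoxia. Every HIF1A-/- library was above every shNT library, and the log2 fold changes were 1.63 ± 0.26 (SE, adjusted p = 4.29e-04) and 2.69 ± 0.27 (SE, adjusted p = 1.51e-06). IFI27, a mitochondrial and nuclear-membrane protein widely used as a marker of interferon exposure, was at 1.45 and 1.27 (normoxia) and 1.31 and 1.72 (hypoxia) CPM in shNT cells, below all HIF1A-/- libraries. Its log2 fold changes were 3.61 ± 0.70 (SE, adjusted p = 0.00242) and 3.27 ± 0.71 (SE, adjusted p = 0.00169); without HIF1A-/- hypoxia library A the latter was 1.52 (adjusted p = 0.0673). OAS1 was at 6.49 and 2.65 CPM in HIF1A-/- cells in normoxia and 2.60 and 0.552 in hypoxia, and the lowest of these, hypoxia library B, lay within the range of the shNT normoxia libraries. It was higher by 2.80 ± 0.63 (SE, adjusted p = 0.00663) and 2.42 ± 0.80 (SE, adjusted p = 0.0230), and IFI6 by 2.16 ± 0.53 (SE, adjusted p = 0.0123) and 1.92 ± 0.53 (SE, adjusted p = 0.00904).

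In hypoxia without HIF1A-/- library A, OAS1 was at 0.94 (adjusted p = 0.457) and IFI6 at 0.43 (adjusted p = 0.476), and the count was 17, of which 4 were higher and 13 lower. In normoxia without HIF1A-/- library A, OAS1 was at 2.04 (adjusted p = 0.0644) and IFI6 at 1.13 (adjusted p = 0.184), IFI6 also missed the threshold without either shNT library (0.0991 and 0.0898) and OAS1 without shNT library B (0.0883). In hypoxia OAS1 missed it also without shNT library A (0.135) and IFI6 without shNT library B (0.0671). The normoxia count was 7 without shNT library B, 8 without shNT library A and 9 without either HIF1A-/- library. OASL stood at 14.01 and 12.9 CPM in normoxia and 12.01 and 5.55 in hypoxia and was higher by 1.96 ± 0.30 (SE, adjusted p = 2.91e-04) and 1.70 ± 0.32 (SE, adjusted p = 5.04e-04). IRF7 was higher by 1.60 ± 0.26 (SE, adjusted p = 5.08e-04) and 1.18 ± 0.25 (SE, adjusted p = 0.00148), and the call in normoxia held without each library in turn.

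IFITM2 was at 57.1 and 60.2 CPM in shNT and 23.1 and 21.8 in HIF1A-/- cells in normoxia and at 76.9 and 100.1 (shNT) and 23.8 and 16.3 (HIF1A-/-) in hypoxia. The 4 HIF1A-/- libraries were the lowest of all 16 for this gene. The log2 fold changes were -1.38 ± 0.18 (SE, adjusted p = 6.14e-05) and -2.15 ± 0.18 (SE, adjusted p = 3.04e-07). IFITM3, its close copy, was at -0.03 ± 0.22 (SE, adjusted p = 0.951) in normoxia and -0.65 ± 0.22 (SE, adjusted p = 0.0236) in hypoxia. Also lower in hypoxia on the log2 scale were IFIT2 at -2.27 ± 0.43 (SE, adjusted p = 5.93e-04), DTX3L at -2.03 ± 0.21 (SE, adjusted p = 2.60e-06), MX1 at -1.66 ± 0.46 (SE, adjusted p = 0.00837), IFIT5 at -1.55 ± 0.21 (SE, adjusted p = 3.58e-05), PARP9 at -1.26 ± 0.21 (SE, adjusted p = 1.73e-04) and SAMD9 at -0.99 ± 0.32 (SE, adjusted p = 0.0201).

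**Figure D4:**
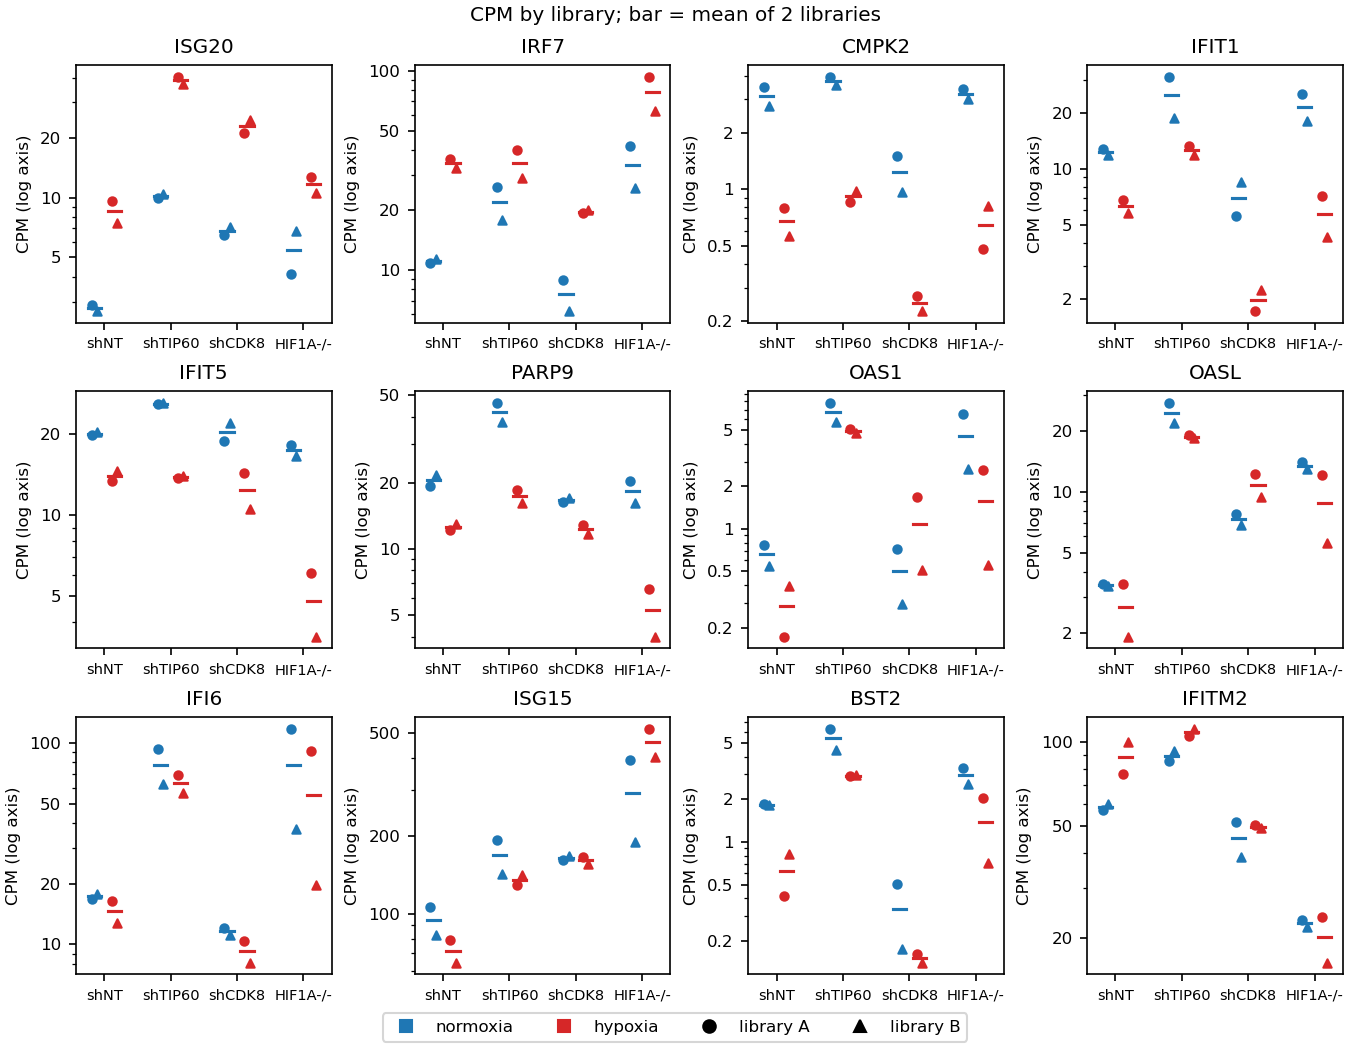
CPM (log axis) of 12 ISGs in every library by line, with circles for library A, triangles for library B and a bar at the mean of 2 libraries, in normoxia (blue) and hypoxia (red). ISG20 and IRF7 rise and CMPK2, IFIT1 and IFIT5 fall from blue to red in every line; OAS1, OASL and IFI6 are lowest in shNT or shCDK8 and high in shTIP60; the HIF1A-/- points of IFI6 and OAS1 lie far apart.

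Over all 13 comparisons, 35 of the 38 tested ISGs were called at least once, as were 81.1% of all tested genes. The other 3 were OAS2 (3 to 40 counts per group), the ligase HERC5 and the sensor DDX58. HERC5 ranged from 8.87 to 18.4 CPM and DDX58 from 8.04 to 19.6 CPM over the 16 libraries. LGALS3BP, at 576 ± 18.1 CPM in shNT cells in normoxia, was called once, lower in HIF1A-/- than in shNT cells in hypoxia (-0.82 ± 0.30, adjusted p = 0.0351).

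The rest of the interferon pathway was followed through 7 lists of other genes. Of 20 interferon ligand genes, 12 had 0 counts in all 16 libraries, IFNB1 among them, and apart from IFNE none had more than 5 counts in a library. IFNE, an epithelial type I interferon, had 0 to 14 counts per library (0 to 0.345 CPM), and was called lower in HIF1A-/- cells in hypoxia, where it had 1 and 0 counts against 10 and 5 in shNT cells. All 6 receptor genes passed the filter on low counts. In shTIP60 cells IFNAR2, a chain of the type I receptor, was higher by 0.57 ± 0.14 (SE, adjusted p = 0.00932) in normoxia and 0.60 ± 0.14 (SE, adjusted p = 0.00676) in hypoxia, while IL28RA, a chain of the type III receptor, was called lower in normoxia, at -0.46 ± 0.15 (SE, adjusted p = 0.0469). Of the 9 tested genes of JAK-STAT and IRF signalling, 0 were called in shTIP60 cells at either oxygen level. Over all tested genes 18.4% were called in normoxia and 21.8% in hypoxia. With so few genes, 0 calls does not show that this list was unchanged.

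Of 25 tested genes on a second list of antiviral ISGs, 11 rose and 1 fell in shTIP60 cells in normoxia and 8 rose and 0 fell in hypoxia, with medians of 0.54 and 0.32; over all tested genes 10.3% were called higher and 8.13% lower in normoxia and 11.3% and 10.5% in hypoxia. APOL6, an apolipoprotein L, was at 0.623 ± 0.0977 CPM in shNT and 13.7 ± 0.335 in shTIP60 cells in normoxia (4.44 ± 0.34, adjusted p = 1.83e-07), and PARP14, an ADP-ribosyltransferase, was higher by 1.90 ± 0.16 (SE, adjusted p = 4.54e-07). TMEM173 (STING, the adaptor of cytosolic DNA sensing) was at 32.7 ± 3.46 CPM in shNT and 75.6 ± 3.74 in shTIP60 cells in normoxia and at 36.96 ± 3.49 and 104 ± 0.858 in hypoxia. Of 18 tested genes of antigen presentation and interferon-gamma targets, 6 rose and 0 fell in normoxia and 3 rose and 1 fell in hypoxia; PSMB9, an immunoproteasome subunit, was higher by 1.47 ± 0.17 (SE, adjusted p = 1.78e-05) and 1.58 ± 0.18 (SE, adjusted p = 1.10e-05).

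In shCDK8 cells, of the same 18 genes of antigen presentation, 0 were called higher and 4 lower in normoxia and 0 higher and 7 lower in hypoxia; over all tested genes 7.27% were called lower in normoxia and 13.4% in hypoxia. NLRC5, the transactivator of MHC class I genes, was lower, at -1.28 ± 0.19 (SE, adjusted p = 2.19e-04) and -1.16 ± 0.20 (SE, adjusted p = 4.68e-04), and HLA-E was at 555 ± 8.40 CPM in shNT and 198 ± 6.65 in shCDK8 cells in hypoxia (-1.49 ± 0.12, adjusted p = 5.55e-07). On the second list of antiviral ISGs (25 tested), 4 were higher and 3 lower in normoxia and 4 and 2 in hypoxia. Over all tested genes 5.80% were called higher and 7.27% lower in normoxia, and 14.4% and 13.4% in hypoxia. The hypoxia counts of the list were thus near or below the shares of all tested genes. APOBEC3G, a cytidine deaminase that restricts retroviruses, was higher by 3.97 ± 0.37 (SE, adjusted p = 2.60e-06) in normoxia, and TRIM38 was lower, at -1.51 ± 0.15 (SE, adjusted p = 4.65e-06). SOCS1, a feedback inhibitor of JAK kinases, was at 1.87 ± 0.183 CPM in shNT, 4.61 ± 0.0676 in shCDK8 and 4.90 ± 0.382 in HIF1A-/- cells in normoxia, called higher in both.

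In HIF1A-/- cells in hypoxia 5 of the 13 tested sensor and adaptor genes were lower and 2 higher than in shNT; of all tested genes 41.1% were called in either direction in this comparison. TLR3, the endosomal sensor of double-stranded RNA, was at 2.16 ± 0.0648 CPM in shNT and 0.0882 ± 0.0330, from 3 and 2 counts, in HIF1A-/- cells (-4.58 ± 0.50, adjusted p = 3.59e-06), and TMEM173 was at 8.37 ± 2.20 CPM (-2.15 ± 0.20, adjusted p = 8.90e-07). Of the receptors 3 were lower and 2 higher, with IL10RB, a chain of the type III receptor, at -1.01 ± 0.14 (SE, adjusted p = 3.15e-05) and IFNAR1 at -0.95 ± 0.16 (SE, adjusted p = 2.82e-04). On the second list of antiviral ISGs 7 of 25 were lower and 3 higher, a share close to that of all tested genes.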

How the data were processed

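The deposited table holds raw read counts per gene in 16 libraries, made by the authors with GSNAP 2013-10-28 and HTSeq 0.5.4p5 on hg19, per the submitters' processing notes; whether strand was used in counting is not given in the sources used here. Its columns carry library numbers and not the replicate numbers of the labels. The 41 genes, the other lists and the naming rule were chosen with earlier results of these data known. Counts were scaled by TMM factors (edgeR 4.0.16, R 4.3.3), filtered by filterByExpr over the 8 groups (15520 of 23669 genes kept), and fitted as 8 group means by the quasi-likelihood test, with Benjamini-Hochberg adjustment over all tested genes and a threshold of 0.05. In all, 13 contrasts were tested: the hypoxia effect within each of 4 lines, each altered line against shNT at each oxygen level, and the difference between an altered line's hypoxia effect and that of shNT. SE is the log2 fold change divided by the square root of F. CPM used the TMM-scaled totals. Scripts were tested on simulated data. Members named with values were called, had groups that did not overlap and a mean of at least 1 CPM in the higher group, up to 8 per comparison; others were named to complete a family or role after values were seen. Alternatives were DESeq2 1.42.0, library totals, other filters, only the groups compared and leaving out each library. Intervals of counting error are not given, since read counts without molecular identifiers are not independent molecules.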

Additional observations from a re-analysis of the deposited data

Results flagged for a closer look

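The hypoxia response of HIF1A-/- cells was set against that of shNT cells by a test of the difference itself (edgeR's quasi-likelihood test). It differed in 6 of the 38 tested ISGs and in 18 of 83 tested genes of the other pathway lists, of which up to 3 per list are given. Of all tested genes 16.4% passed, a share close to that of the ISGs. With only the 8 libraries compared in the fit, IFIT2, SAMD9, PARP9 and IFITM2 missed the threshold. The values are differences of log2 fold changes, HIF1A-/- minus shNT, ± SE with the adjusted p in parentheses. Among the ISGs were IFIT2 at -1.97 ± 0.54 (0.0221), SAMD9 at -1.50 ± 0.43 (0.0261), DTX3L at -1.38 ± 0.29 (0.00465), IFIT5 at -1.34 ± 0.29 (0.00568), PARP9 at -1.10 ± 0.28 (0.0148) and IFITM2 at -0.76 ± 0.25 (0.0480). Among receptors were IL10RB at -1.17 ± 0.19 (9.16e-04) and IFNAR1 at -0.80 ± 0.23 (0.0274). Among sensors, adaptors and related antiviral genes were TLR3 at -3.24 ± 0.64 (0.00342), from few counts in hypoxic HIF1A-/- cells, TMEM173 at -1.48 ± 0.28 (0.00220), TRIM21 at -1.17 ± 0.23 (0.00322), TRIM38 at -1.07 ± 0.20 (0.00277), SLFN5 at -1.06 ± 0.22 (0.00407) and ZNFX1 at -0.996 ± 0.22 (0.00709).

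Of the phosphatases that act on the pathway, PTPN6 at -0.67 ± 0.16 (0.0107) went one way and PTPN11 at 0.62 ± 0.17 (0.0234) and PTPN1 at 0.57 ± 0.18 (0.0394) the other. In antigen presentation, HLA-E at -0.92 ± 0.17 (0.00228) stood against PSMB10 at 0.92 ± 0.27 (0.0314) and PSME2 at 0.64 ± 0.17 (0.0182). The 2 HIF1A-/- hypoxia libraries stood apart in many ISGs, with 11 of 38 at least 2 times higher in library A; the part of that spread in these differences was not tested.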

How the results depend on the processing

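No paired analysis was possible because the columns carry library numbers and not the replicate numbers of the labels; library series, used below, is not a pairing that the labels give. None of the 243 named single-gene results reversed under any alternative. They had been picked because they were called, and the ISGs by the naming rule also because their groups did not overlap. A change of sign was thus unlikely from the start, and its absence says little. Without 1 library 238 of 1052 such values missed the threshold, and under the other alternatives 46 of 1696 did. Counts of called ISGs that moved by over 1.5 times were as follows. With library totals alone, hypoxia in shTIP60 cells gave 18 calls. Without a filter except 1 count, hypoxia gave 10 in shCDK8 and 16 in shTIP60 cells, shCDK8 against shNT in normoxia gave 14, and the responses of HIF1A-/-, shCDK8 and shTIP60 cells against that of shNT gave 10, 2 and 1. With only the groups compared, hypoxia in shTIP60 cells gave 26, shCDK8 against shNT in normoxia 12 and the HIF1A-/- response 2. With library series as a block, an alternative chosen after seeing the data, hypoxia gave 12 in shCDK8 and 17 in shTIP60 cells and shCDK8 against shNT in normoxia gave 13. The causes of these moves were not tested. Leaving out each library, which leaves an arm with 1 library assumed to vary like the other groups, gave 4 to 11 calls for hypoxia in shNT, 10 to 21 in HIF1A-/-, 4 to 6 in shCDK8 and 6 to 8 in shTIP60 cells. Against shNT it gave 7 to 9 in HIF1A-/-, 2 to 6 in shCDK8 and 9 to 20 in shTIP60 cells in normoxia, and 15 to 19, 8 to 13 and 5 to 15 in hypoxia. For the HIF1A-/- response it gave 2 to 11, and 0 for the responses of shCDK8 and shTIP60 cells. Members under 1 CPM (OAS2, MX2, IFI44L, RSAD2, SAMD9L and XAF1) are limited by depth.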
